A study of Mus musculus with 26 samples.

Results

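The 9 genes described here make, remove or sense prostaglandins: the cyclooxygenase genes Ptgs1 and Ptgs2, the synthase genes Ptgds, Hpgds and Ptges, the breakdown gene Hpgd, and the receptor genes Ptger2, Ptger4 and Ptgfr. They were chosen by name, as genes around the prostaglandin D2 loop that supports Sox9, and were matched by gene symbol and Ensembl identifier to 57186 genes counted by RNA-seq. The 26 libraries were made from E13.5 mouse gonads labelled XY and fall into 6 groups. These are WT, the wild type (3 libraries), 4 deletions of the Fgf9 locus named Fgf9 Δ306 (3), Δ225 (6), Δ104 (4) and Δ93 (6), and Meis1 KO (4). Fgf9 encodes a growth factor of testis development and Meis1 a homeobox transcription factor. The labels give no breakpoints, no zygosity and no strain. The gonads of every group had been separated from the mesonephros, the adjoining embryonic kidney tissue. All deletions were counted with WT in one table, and Meis1 KO with the same WT libraries in another, so levels were compared only within a table. Nothing in the labels says whether samples of a group shared a litter or a pool, so p-values measure the spread between these samples.

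Prostaglandins are lipid signals made from arachidonic acid. Cyclooxygenases convert it to prostaglandin H2, and separate synthases turn that into prostaglandin D2, E2 or F2α, which leave the cell and act on G protein-coupled receptors. In the developing testis, Sertoli cells, the supporting cells of the cords, express the transcription factor Sox9, which activates Ptgds, the lipocalin-type prostaglandin D synthase. The prostaglandin D2 it makes acts back on supporting cells and favours the presence and nuclear location of SOX9 protein.

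The stretches just upstream of the start are printed for the 3 members that passed an adjusted p under 0.05 by edgeR in a fit of all libraries (Ptgds, Ptger4 and Ptgfr) and for Hpgds, which makes the same product as Ptgds. Each is the 250 bases before the RefSeq start on GRCm38.p6, written 5′ to 3′ on the gene's strand, with CG dinucleotides in capitals. All 4 genes lie on the minus strand, and the windows are chr2:25469750-25469999 for Ptgds, chr6:65144731-65144980 for Hpgds, chr15:5244188-5244437 for Ptger4 and chr3:151837529-151837778 for Ptgfr. The RefSeq start of Ptgds, Hpgds and Ptgfr lies inside the gene as GENCODE M21 draws it, so that 250, 178 and 102 bases of these windows are within the GENCODE gene, and 93, 178 and 102 within its exons. No base of the Ptger4 window is within the GENCODE gene.
Ptgds: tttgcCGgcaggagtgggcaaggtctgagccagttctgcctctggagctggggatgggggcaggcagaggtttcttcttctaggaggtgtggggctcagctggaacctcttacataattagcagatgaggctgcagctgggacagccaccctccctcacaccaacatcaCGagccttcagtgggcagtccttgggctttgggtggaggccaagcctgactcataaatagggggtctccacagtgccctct
Hpgds: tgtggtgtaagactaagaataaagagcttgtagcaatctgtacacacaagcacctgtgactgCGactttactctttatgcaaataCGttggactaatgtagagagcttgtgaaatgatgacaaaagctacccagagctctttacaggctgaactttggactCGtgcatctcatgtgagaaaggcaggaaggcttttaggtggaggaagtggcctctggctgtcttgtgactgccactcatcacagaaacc
Ptger4: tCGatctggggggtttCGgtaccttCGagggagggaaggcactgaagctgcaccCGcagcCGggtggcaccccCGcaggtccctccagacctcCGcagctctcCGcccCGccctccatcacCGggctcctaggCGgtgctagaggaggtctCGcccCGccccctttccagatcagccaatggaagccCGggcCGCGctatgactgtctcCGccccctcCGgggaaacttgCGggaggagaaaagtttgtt
Ptgfr: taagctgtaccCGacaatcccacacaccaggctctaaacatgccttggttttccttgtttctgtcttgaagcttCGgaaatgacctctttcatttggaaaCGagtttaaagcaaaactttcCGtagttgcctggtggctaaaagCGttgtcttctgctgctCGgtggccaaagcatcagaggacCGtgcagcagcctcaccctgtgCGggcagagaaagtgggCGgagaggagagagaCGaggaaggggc
The Ptgds window held 2 CG dinucleotides and the Hpgds window 3, and 29.0% and 37.8% of all RefSeq promoters in the table held as few. Ptger4 held 19 and Ptgfr 10, counts that 82.1% and 64.4% of promoters did not exceed. SOX proteins bind short sequences related to ACAAT and ACAAAG, so these letters were searched on both strands from 250 bases before to 50 after the start. In Ptgds, 1 match was found, ACAAAG on the antisense strand, 25 to 30 bases after the start (CTTTGT on the gene strand), outside the printed bases. Ptgfr held ACAAT 237 to 233 bases before the start, and Hpgds and Ptger4 held neither word. Of 32851 promoters, 31.0% held ACAAT, 18.7% held ACAAAG and 42.9% held either, so a match describes the letters and no more.

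Library totals were 11.6 to 53.4 M counts in the table of all deletions and 35.5 to 51.7 M in the Meis1 table (M, 1000000 counts). Fgf9 read 9.21 to 9.85 counts per 1000000 (CPM) in WT and 2.17 to 2.94 in Δ306, and Meis1 read 62.1 to 109 CPM in WT and 0.201 to 0.695 in Meis1 KO. Fgf9 passed as lower than WT by edgeR's quasi-likelihood test in Δ306 (adjusted p = 0.0148) and Δ93 (adjusted p = 0.00532). It did not pass by that test in Δ225 (adjusted p = 0.535) or Δ104 (adjusted p = 0.259). Fgf9 read 2.72 to 6.98 CPM in Δ104, below every WT library (groups did not overlap for 18.1% of genes). Δ93 ranged from 2.30 to 4.75, and Δ225 from 3.69 through a median of 5.43 to 16.5. Meis1 was lower in Meis1 KO (adjusted p = 0.000179). The summed CPM of the 4 Y-linked genes Ddx3y, Uty, Kdm5d and Eif2s3y was 31.2 to 77.2 in WT. It was at most 11.7 in Δ306, 20.5 in Δ225 and 6.60 in Δ93, and 1.92 to 36.2 in Δ104. In the Meis1 table it was 33.3 to 81.6 in WT and 3.67 to 15.8 in Meis1 KO. All 4 genes passed as lower in Δ93 than in WT by edgeR (6.84% of genes did). The sum was under 1 in 4 libraries labelled XY, Δ306 replicate 3, Δ225 replicate 4 and Δ93 replicates 4 and 5. In that order, the X-inactivation gene Xist read 0.671, 0.177, 6.42 and 0.226 CPM in them. Xist read 0.0583 to 0.185 CPM in WT and at most 3.12, in Δ225 replicate 2, in the other libraries of all deletions. Leaving out the 4 libraries low in Y-linked genes keeps other mutant libraries that are below WT. For each member or prostanoid pathway gene called in the table of all deletions, the value without those 4 libraries is given as well. Δ225 replicates 1 to 3 were among the 8 libraries under 25 M counts. Replicate 1 had 11.6% of its counts on mitochondrial genes and replicate 2 had 5.47%. That share was 0.831% to 1.79% in WT and at least 2.23% in every deletion library, so each deletion differs from WT in it. Its part in the comparisons with WT was not tested. Each of the Sertoli marker genes examined, a list of 10 with Sox9, Amh and Dhh among them, had counts in all libraries.

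Of the 9 members, 2 were lower in Δ93 than in WT at an adjusted p under 0.05 (edgeR, Benjamini-Hochberg over all genes), where 14.1% of the 22941 genes tested passed and 6.84% passed on the lower side. In Δ225 against Δ93, 3 members were higher in Δ225, where 20.8% of genes passed and 9.96% passed on the higher side. No member passed in Δ306 (6.43% of genes passed), Δ225 (0.209%) or Δ104 (0.061%) against WT, or in Meis1 KO against WT (1.8% of 16791 genes, 8 members tested). None passed in the other comparisons between deletions either: Δ225 against Δ306 (13.2% of genes), Δ225 against Δ104 (0.645%), Δ93 against Δ306 (0.0785%), Δ93 against Δ104 (0.0523%) and Δ104 against Δ306 (0.0654%). At an unadjusted p under 0.05, the count was 1 in Δ306 (21.9% of genes), 0 in Δ225 (16.1%), 0 in Δ104 (15.7%) and 2 in Meis1 KO (19.3%), each against WT. It was 1 in Δ225 against Δ306 (28.1%), 1 in Δ225 against Δ104 (10.6%), 1 in Δ93 against Δ306 (9%), 3 in Δ93 against Δ104 (14.5%) and 0 in Δ104 against Δ306 (11.1%). DESeq2 called 1 member in Meis1 KO against WT (Ptgds; 9.24% of genes called) and 1 in Δ225 against Δ306 (Ptgfr; 18.9%). It called 0 in Δ306 (11.9%), Δ225 (3.57%) and Δ104 (2.66%) against WT, and 0 in Δ225 against Δ104 (1.99%), Δ93 against Δ306 (0.763%), Δ93 against Δ104 (2.41%) and Δ104 against Δ306 (1.81%). The comparisons with WT share its 3 libraries, so their values stand side by side and are not independent. All 9 members were tested in the table of all deletions, and Ptgs2 did not pass the low-count filter of the Meis1 table. The median log2 fold change of the members was -0.44 in Δ93 against WT and 0.55 in Δ225 against Δ93, beside 0.06 and 0.00 over all genes tested.

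**Figure D1:**
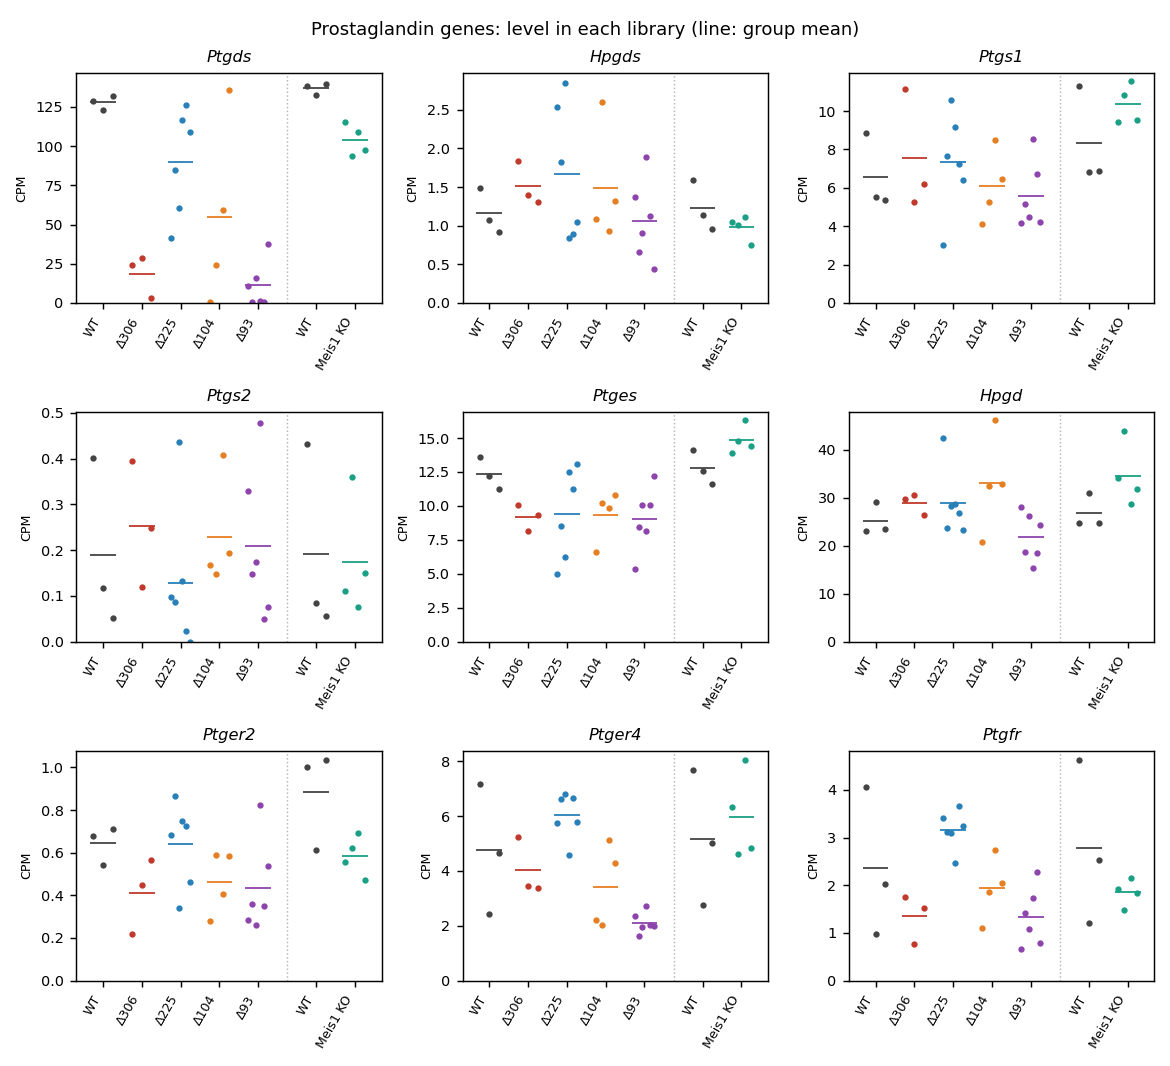
Each panel shows 1 of the 9 genes, with CPM on the vertical axis from 0, a point for each library and a line at the group mean; the dotted line separates the table of all deletions from the Meis1 table. Ptgds in WT sat at 123 to 132 CPM, above all 3 Δ306 and all 6 Δ93 libraries. All 6 Δ225 libraries were above all 6 Δ93 libraries for Ptger4 and Ptgfr. Groups did not overlap for 37.6% of genes in Δ306 against WT, 24.7% in Δ93 against WT and 11% in Δ225 against Δ93.

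Levels per kilobase of exon allow the members to be ordered in WT. Ptgds led with 77.6 ± 2.71 CPM per kilobase (SD, n = 3), followed by Hpgd with 15.0 ± 1.97, Ptges with 3.14 ± 0.301 and Ptgs1 with 1.70 ± 0.508. Ptger4 had 0.715 ± 0.356, Ptgfr 0.348 ± 0.232, Hpgds 0.180 ± 0.045, Ptger2 0.124 ± 0.017 and Ptgs2 0.0416 ± 0.041. The ranges of the first 4 did not overlap with each other or with the rest. Among the remaining 5, the ranges of Ptger4 and Ptgfr overlapped, as did those of Ptgfr and Hpgds, while Ptger2 and Ptgs2 were each below their upper neighbour in every library. Sox9, on the same scale, had 24.5 ± 0.673 CPM per kilobase. The receptors that bind prostaglandin D2 were near the detection limit: in the table of all deletions Ptgdr had 0 counts in all 3 WT libraries and Ptgdr2 had 0 to 4. In the Meis1 table the same WT libraries had 1 to 3 counts of Ptgdr and 1 to 4 of Ptgdr2, and neither gene was tested in either table.

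The cyclooxygenase genes carry out the committed step and showed no difference that passed a test. Ptgs1 encodes the constitutive cyclooxygenase and lies at chr2:36230426-36252272 on the plus strand. It read 8.87, 5.52 and 5.38 CPM in WT, 11.1, 5.26 and 6.22 in Δ306, and 4.11, 5.26, 8.49 and 6.47 in Δ104. Δ225 ranged from 3.02 through a median of 7.44 to 10.6, and Δ93 from 4.15 through 4.82 to 8.57. All 5 groups overlapped, and the log2 fold change against WT ran from -0.24 ± 0.34 (SE) in Δ93 to 0.19 ± 0.39 in Δ306, with adjusted p of 0.687 to 0.89. In the Meis1 table, Ptgs1 read 11.3, 6.80 and 6.89 CPM in WT and 9.45, 10.9, 11.5 and 9.55 in Meis1 KO, a log2 fold change of 0.31 ± 0.20 (edgeR adjusted p = 0.434). Without WT replicate 1, whose level was the highest of the 3, it was 0.60 with an adjusted p of 0.0229. Exons of Ptgs1 overlap the opposite-strand gene Gm43621.

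Ptgs2, the inducible cyclooxygenase (chr1:150100031-150108227, plus strand), was at the floor of the measurement. WT libraries had 16, 6 and 2 counts, Δ306 9, 4 and 7, Δ104 6, 3, 7 and 4, and Meis1 KO 5, 15, 4 and 7. Δ225 libraries had 0 to 9 counts and Δ93 libraries 2 to 18. The SE of the log2 fold change was 0.87 to 1.01 in the 4 comparisons of a deletion with WT, so differences of 2-fold in either direction were not detectable at this depth.

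Ptgds (chr2:25466709-25470046, minus strand) was the member with the widest range. It read 129, 123 and 132 CPM in WT, and 24.4, 28.3 and 3.11 in Δ306. Δ104 libraries read 0.778, 23.9, 59.1 and 136. Δ93 ranged from 0.527 through a median of 6.14 to 37.4, and Δ225 from 41.1 through 97.1 to 126. Every Δ306 and every Δ93 library was below every WT and every Δ225 library, while Δ104 spanned almost the whole range, from the level of the lowest Δ93 libraries to that of WT. Groups did not overlap for 37.6% of genes in Δ306 against WT, 24.7% in Δ93 against WT, 11% in Δ225 against Δ93 and 20.2% in Δ225 against Δ306.

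Ptgds fell in Δ93 by 3.52 ± 1.03 (SE) on the log2 scale against WT (edgeR adjusted p = 0.0270, 6 of 6 libraries lower). The adjusted p was 0.0910 without the 4 libraries low in Y-linked genes, with a log2 fold change of -3.04, and 0.05002 without Δ93 replicate 4. Leaving out WT replicate 1, 2 or 3 gave 0.0683, 0.0638 and 0.0631. Between the deletions, Ptgds was higher in Δ225 than in Δ93 by 3.01 ± 0.93 (adjusted p = 0.0260). That difference was 2.42 (adjusted p = 0.126) without the 4 libraries and 2.76 (adjusted p = 0.0543) without Δ93 replicate 4. In Δ306 the log2 fold change was -2.78 ± 1.3 with an adjusted p of 0.212 in the fit of all 22 libraries. In the separate table that holds WT and Δ306 alone it was -2.71 ± 0.67 with an adjusted p of 0.0321, where 18.8% of 16470 genes passed. The spread there came from those 6 libraries rather than from 22, and the size of the difference was nearly the same. Δ225 exceeded Δ306 by 2.27 (adjusted p = 0.217), and by 2.28 with an adjusted p of 0.0458 in the fit of those groups alone, where 9.7% of genes passed. In bulk tissue, fewer cells of a type and less RNA per cell cannot be told apart.

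In group order, mean Ptgds was 128 ± 4.46 CPM (SD, n = 3) in WT, 89.7 ± 33.8 (n = 6) in Δ225, 54.9 ± 59.1 (n = 4) in Δ104, 18.6 ± 13.6 (n = 3) in Δ306 and 11.2 ± 14.3 (n = 6) in Δ93. No pair of neighbours in that order differed by the test: Δ225 was -0.51 ± 1.03 against WT (edgeR adjusted p = 0.82), and Δ225 against Δ104 was 0.71 ± 0.98 (adjusted p = 0.877). Δ104 against Δ306 was 1.56 ± 1.19 (adjusted p = 0.669) and Δ93 against Δ306 was -0.74 ± 1.04 (adjusted p = 0.882). In Δ225, the 3 libraries with the lowest Ptgds, replicates 1 to 3, were also those with the fewest counts; without the 8 libraries under 25 M counts Δ225 against WT was -0.10. Δ225 replicate 4, low in Y-linked genes, read 117 CPM of Ptgds.

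The Meis1 KO libraries read 116, 93.9, 109 and 97.3 CPM of Ptgds, all below the 139, 133 and 140 of WT in that table; groups did not overlap for 19.7% of genes. The log2 fold change was -0.40 ± 0.08 (edgeR adjusted p = 0.0599; DESeq2 adjusted p = 0.000987), so the call depended on the tool. Without WT replicate 1 edgeR gave -0.39 with an adjusted p of 0.0280. Sox9 in the same libraries read 101, 78.1, 100 and 101 CPM against 106, 109 and 111 in WT, a log2 fold change of -0.19 ± 0.10 (adjusted p = 0.345).

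**Figure D2:**
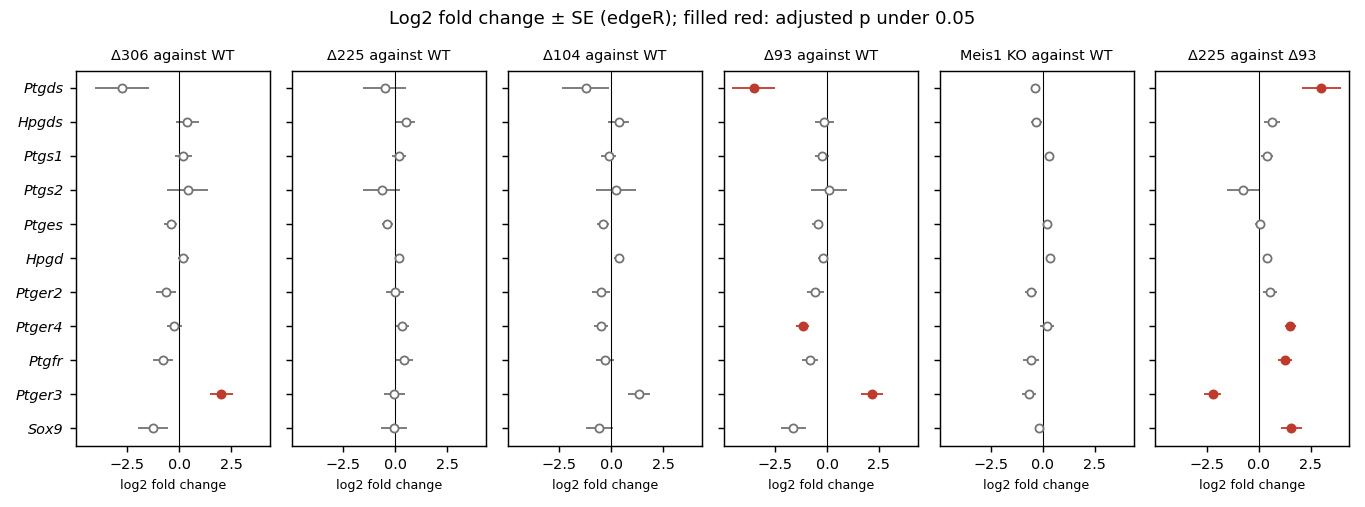
Each panel is a comparison, with the log2 fold change on the horizontal axis, bars for 1 SE on each side, and the 9 members with Ptger3 and Sox9 as lines; filled red points passed an adjusted p under 0.05 by edgeR. Ptgds and Ptger4 were lower in Δ93 than in WT, Ptgds, Ptger4 and Ptgfr were higher in Δ225 than in Δ93, and Ptger3 passed with the opposite sign in both.

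To see Ptgds against its activator, the difference between log2 CPM of Ptgds and of Sox9 (prior count 2) was taken within each library. It was 0.38, 0.29 and 0.34 in WT, -1.39, -0.83 and -1.83 in Δ306, and -3.80, -1.27, -0.98 and 0.61 in Δ104. It ran from -4.05 to -0.99 in Δ93, with a mean of -2.52 ± 1.21 (SD, n = 6), and from -1.64 to 0.52 in Δ225, with a mean of -0.19 ± 0.82 (n = 6). Every Δ306 and every Δ93 library was below WT, that is, Ptgds was further below its WT level than Sox9 was. The difference from WT was -2.85 in Δ93 (two-sided exact permutation p = 0.0238, the smallest that 6 against 3 can give; adjusted over 11 comparisons p = 0.131) and -1.69 in Δ306 (exact p = 0.1, the smallest for 3 against 3; adjusted p = 0.22). Δ225 exceeded Δ93 by 2.33 (exact permutation p = 0.00649, adjusted p = 0.0714), and by 2.62 without Δ225 replicate 1 (adjusted p = 0.0476). In Meis1 KO the ratio was 0.19, 0.26, 0.12 and -0.06, and its difference from WT was -0.21 (exact p = 0.0571, the smallest for 4 against 3; adjusted p = 0.21). With all libraries, no difference passed after adjustment. In the fits of all libraries, Sox9 itself passed by edgeR only in Δ225 against Δ93 (1.57 ± 0.52, edgeR adjusted p = 0.0376), and not without the 4 libraries low in Y-linked genes (adjusted p = 0.177) or without the 8 under 25 M counts (0.0773). Leaving out any 1 of Δ225 replicates 1, 3 and 4 or Δ93 replicates 2, 4 and 5 also took it to between 0.0517 and 0.0826. In Δ93 against WT, DESeq2 called Sox9 lower (-1.63, adjusted p = 0.0404), as did edgeR without Δ93 replicate 6 (-2.04, adjusted p = 0.0263).

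**Figure D3:**
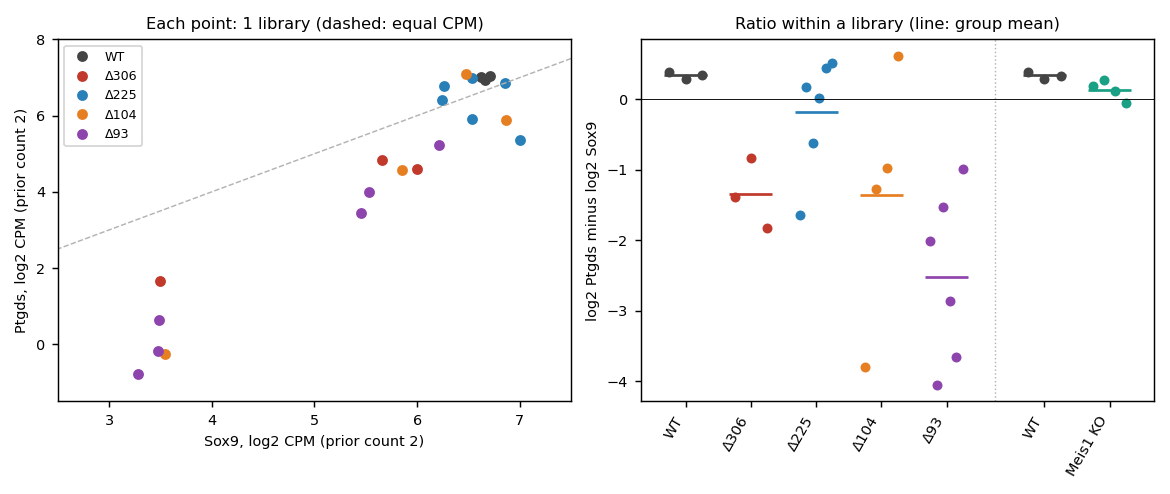
Left, log2 CPM of Ptgds against that of Sox9 for each of the 22 libraries in the table of all deletions, with a dashed line of equal CPM; right, the difference between them in each library of both tables, with a line at the group mean. The 3 WT libraries sit between 0.29 and 0.38, and the 6 Δ93 libraries between -4.05 and -0.99.

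Among 16152 other genes with a mean of at least 1 CPM, those whose centred log2 CPM lay closest to that of Ptgds over the 22 libraries were Dhh, Cst9, Gdnf, Kcns2 and Padi2. Their root mean square differences were 0.410, 0.513, 0.540, 0.615 and 0.711, against a median of 2.62 over all genes; Sox9 was at rank 92 with 1.43. Dhh, a hedgehog ligand of Sertoli cells, read 62.8, 74.1 and 61.0 CPM in WT, 16.1, 17.3 and 1.17 in Δ306, and 0.417, 21.5, 46.0 and 67.2 in Δ104. Gdnf, a growth factor of Sertoli cells, read 51.9, 46.6 and 40.0 CPM in WT, and 9.30, 10.1 and 1.70 in Δ306. The libraries with the least Ptgds, Δ104 replicate 1, Δ93 replicates 2, 4 and 5 and Δ306 replicate 3, also had the least Dhh and Gdnf. Both genes were picked for likeness to Ptgds over these same libraries, so that match follows from the choice. Dhh and Cst9 are on the Sertoli list. The summed CPM of the whole list was 1953 to 2427 in WT, 644 to 2242 in Δ225, 42.8 to 2017 in Δ104, 87.2 to 528 in Δ306 and 65.2 to 877 in Δ93, with no marker at 0 in any group. In WT, Amh alone read 1263 to 1685 CPM, the largest part of that sum. Of the 10 genes on the list, 9 were lower and 1, Gata1, was higher than in WT, in Δ93 and in Δ306 alike. By edgeR, 4 were called lower in Δ93 than in WT and 2 in Δ306, and 0 were called higher. Of all genes, 14.1% passed in Δ93, with 6.84% on the lower side, and 6.43% passed in Δ306. In Δ225, 5 were called higher and 1 lower than in Δ93, and 4 higher and 1 lower than in Δ306. Of all genes, 20.8% and 13.2% passed in these comparisons. The part of these cells in the Ptgds result was not tested.

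**Figure D4:**
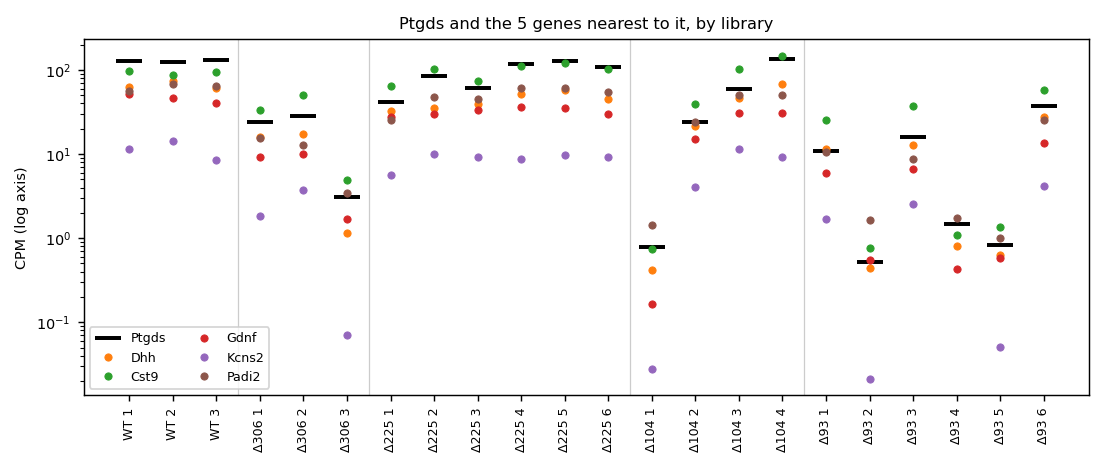
CPM on a log axis for each of the 22 libraries, with Ptgds as black bars and the 5 closest genes as coloured points; vertical lines separate the groups, and Kcns2, at 0 in Δ93 replicate 4, has no point there. All 6 genes were lowest in the same 5 libraries, where Ptgds read 0.527 to 3.11 CPM, a match that follows from picking the genes by likeness over these libraries.

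Hpgds, the hematopoietic prostaglandin D synthase (chr6:65117293-65144908, minus strand), was low in all groups. It read 1.48, 1.07 and 0.923 CPM in WT, from 59, 55 and 35 counts, 1.84, 1.4 and 1.31 in Δ306, and 1.08, 2.60, 0.930 and 1.31 in Δ104. Δ225 ranged from 0.839 through a median of 1.44 to 2.85, and Δ93 from 0.434 through 1.02 to 1.88. All groups overlapped with WT, and the log2 fold change ran from -0.13 ± 0.46 in Δ93 to 0.50 ± 0.47 in Δ225, with edgeR adjusted p of 0.594 to 0.889. Δ93 replicate 4, with 1.49 CPM of Ptgds and low in Y-linked genes, had 1.88 CPM of Hpgds, the highest of its group. By contrast, Δ306 replicate 3, with 3.11 CPM of Ptgds, had 1.31 CPM of Hpgds, the lowest of its group. In Meis1 KO, Hpgds read 1.05, 1.01, 1.11 and 0.751 CPM against 1.59, 1.14 and 0.952 in WT (-0.33 ± 0.26, adjusted p = 0.553). The genes closest to Hpgds were Mpc1, Gm3164, Septin2, 9230114K14Rik and C3ar1, at 0.418 to 0.449, where the median over all genes was 0.770. Of 10 macrophage markers, 0 passed by edgeR in any of the 11 comparisons, in which 0.0523% to 20.8% of genes passed. Of 4 platelet markers, 1 was called lower in Δ225 than in Δ93 and 2 lower than in Δ306 (20.8% and 13.2% of genes passed). Of 4 red blood cell markers, 1 was called lower in Meis1 KO than in WT (1.8%). No other comparison called a marker of these lists, and of 3 mast cell markers tested 0 passed. The part of these cells in the Hpgds levels was not tested.

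Ptges, the inducible prostaglandin E synthase (chr2:30889471-30929863, minus strand), was slightly lower in all 4 deletions than in WT, with no call in the fit of all libraries. It read 13.6, 12.2 and 11.2 CPM in WT, 10.1, 8.18 and 9.33 in Δ306, and 6.61, 10.2, 9.83 and 10.8 in Δ104. Δ225 ranged from 4.98 through 9.87 to 13.1 and Δ93 from 5.38 through 9.28 to 12.2. All Δ306 and all Δ104 libraries were below all WT libraries (groups did not overlap for 37.6% and 18.1% of genes), and Δ225 and Δ93 overlapped with WT. The log2 fold change was -0.42 ± 0.32 in Δ306, -0.38 ± 0.27 in Δ225, -0.40 ± 0.30 in Δ104 and -0.44 ± 0.27 in Δ93, with edgeR adjusted p of 0.298 to 0.499. In Meis1 KO it read 13.9, 14.8, 16.3 and 14.4 CPM against 14.1, 12.6 and 11.6 (0.22 ± 0.11, adjusted p = 0.312). Ptges had the smallest spread of the synthases: its own centred log2 CPM had a root mean square of 0.391 over the 22 libraries, against 0.613 for Hpgds and 2.59 for Ptgds.

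Hpgd, the dehydrogenase that begins the breakdown of prostaglandins (chr8:56294585-56321043, plus strand), was the second most abundant member per kilobase. It read 23.1, 29.0 and 23.4 CPM in WT, 29.7, 30.5 and 26.4 in Δ306, and 20.7, 32.3, 46.3 and 32.9 in Δ104. Δ225 ranged from 23.2 through 27.6 to 42.4 and Δ93 from 15.3 through 21.5 to 28.1. All groups overlapped with WT, and log2 fold changes against WT were 0.20 ± 0.26 in Δ306, 0.19 ± 0.23 in Δ225, 0.39 ± 0.25 in Δ104 and -0.20 ± 0.23 in Δ93. The lowest edgeR adjusted p among all comparisons was 0.134, in Δ225 against Δ93 (0.40 ± 0.19). Δ93 against Δ104 was -0.60 ± 0.21 (adjusted p = 0.208), and -0.74 with an adjusted p of 0.0445 without Δ104 replicate 1, where 3.46% of genes passed. It was -0.45 (adjusted p = 0.748) without the 4 libraries low in Y-linked genes and -0.020 (adjusted p = 0.975) without the 8 libraries under 25 M counts. In Meis1 KO, Hpgd read 34.0, 43.8, 28.6 and 31.9 CPM against 24.8, 31.0 and 24.8 in WT (0.36 ± 0.16, adjusted p = 0.251).

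The receptor genes differed among themselves. Ptger4 encodes the EP4 receptor for prostaglandin E2, which raises cyclic AMP (chr15:5206661-5244187, minus strand). It read 7.16, 2.43 and 4.67 CPM in WT, 5.22, 3.45 and 3.39 in Δ306, and 2.19, 2.02, 5.12 and 4.28 in Δ104. Δ93 ranged from 1.64 through 2.01 to 2.71 and Δ225 from 4.57 through 6.21 to 6.82. All 6 Δ225 libraries were above all 6 Δ93 libraries (groups did not overlap for 11% of genes in that pair). All 6 Δ93 libraries were below all 3 Δ306 libraries (6.38% of genes), while WT replicate 2 lay within the range of Δ93. Ptger4 was higher in Δ225 than in Δ93 by 1.52 ± 0.26 (edgeR adjusted p = 0.000473), a call that held in all 20 alternatives, with a log2 fold change of 1.45 to 1.71. Ptger4 fell in Δ93 by 1.17 ± 0.31 against WT (adjusted p = 0.0148), and by 0.75 with an adjusted p of 0.168 without WT replicate 1. Without the 4 libraries low in Y-linked genes the 2 values were 1.71 (adjusted p = 0.00555) and -1.32 (adjusted p = 0.0386). Δ93 against Δ306 was -0.93 ± 0.31 (adjusted p = 0.341). In Meis1 KO, Ptger4 read 6.33, 4.60, 8.06 and 4.83 CPM against 7.67, 2.77 and 5.01 in WT (0.21 ± 0.34, adjusted p = 0.796).

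Ptgfr encodes the FP receptor for prostaglandin F2α (chr3:151796502-151837630, minus strand). It read 4.07, 0.971 and 2.03 CPM in WT, 1.76, 0.773 and 1.52 in Δ306, and 1.11, 1.87, 2.73 and 2.04 in Δ104. Δ93 ranged from 0.660 through 1.25 to 2.28 and Δ225 from 2.47 through 3.19 to 3.66. The 6 Δ225 libraries were all above the 6 Δ93 and the 3 Δ306 libraries (groups did not overlap for 11% and 20.2% of genes). The WT range contained that of Δ225, while Δ306 replicate 2 and Δ93 replicates 1 and 6 lay below the lowest WT library. Ptgfr was higher in Δ225 than in Δ93 by 1.25 ± 0.34 (edgeR adjusted p = 0.0136), by 1.76 (adjusted p = 0.0124) without the 4 libraries low in Y-linked genes, and by 1.13 with an adjusted p of 0.0818 without the 8 libraries under 25 M counts. Against Δ306, Δ225 was higher by 1.24 ± 0.44 (adjusted p = 0.0674; DESeq2 adjusted p = 0.0221). Against WT no deletion passed, from -0.82 ± 0.40 in Δ93 (adjusted p = 0.185) to 0.43 ± 0.42 in Δ225 (adjusted p = 0.608). In Meis1 KO it read 1.92, 1.49, 2.15 and 1.85 CPM against 4.62, 1.2 and 2.52 in WT (-0.58 ± 0.40, adjusted p = 0.474).

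Ptger2 encodes the EP2 receptor, which like EP4 raises cyclic AMP (chr14:44988195-45003820, plus strand, the chromosome that also carries Fgf9). It read 0.678, 0.544 and 0.712 CPM in WT, from 27, 28 and 27 counts, 0.219, 0.446 and 0.565 in Δ306, and 0.278, 0.590, 0.407 and 0.584 in Δ104. Δ225 ranged from 0.339 through 0.705 to 0.868 and Δ93 from 0.260 through 0.354 to 0.822. All 4 deletions overlapped with WT, and the log2 fold change ran from -0.64 ± 0.48 in Δ306 to -0.01 ± 0.41 in Δ225 (edgeR adjusted p of 0.391 to 0.99). In Meis1 KO it read 0.557, 0.623, 0.690 and 0.472 CPM against 1.00, 0.613 and 1.04 in WT (-0.58 ± 0.29, adjusted p = 0.313). The same WT libraries had 37, 29 and 37 counts of Ptger2 in that table. Exons of the opposite-strand genes Gm49364 and Gm17173 overlap Ptger2, those of Gm43618 overlap Ptgfr, and those of Ttc33 and Gm15937 overlap Ptger4.

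Of a wider list of 20 prostanoid genes (phospholipases, other synthases, reductases, receptors and transporters), 18 were tested in the table of all deletions and 17 in the Meis1 table. Against WT, 1 passed higher and 1 lower in Δ306 (6.43% of all genes passed), and 2 higher and 0 lower in Δ93 (14.1%). By edgeR, 0 passed in Δ225 (0.209%), Δ104 (0.061%) and Meis1 KO (1.8%). In Δ225 against Δ93, 3 passed, all lower in Δ225, where 20.8% of all genes passed. In Δ225 against Δ306, 2 passed, both lower in Δ225, where 13.2% of all genes passed. Ptger3, which encodes the EP3 receptor for prostaglandin E2, which lowers cyclic AMP, passed with the opposite sign to Ptger4 in Δ93 against WT and in Δ225 against Δ93. It read 1.43, 0.758 and 0.765 CPM in WT, 4.65, 2.86 and 4.49 in Δ306, and 4.61, 2.90, 1.92 and 0.438 in Δ104. Δ93 ranged from 2.78 through 4.42 to 5.84 and Δ225 from 0.562 through 0.778 to 1.74. All Δ306 and Δ93 libraries were above all WT and Δ225 libraries, and Δ104 spanned both. Groups did not overlap for 37.6% of genes in Δ306 against WT and 24.7% in Δ93 against WT. The share was 20.2% in Δ225 against Δ306 and 11% in Δ225 against Δ93.

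Ptger3 rose in Δ306 by 2.02 ± 0.57 against WT (edgeR adjusted p = 0.0373) and in Δ93 by 2.18 ± 0.53 (adjusted p = 0.00926). It was lower in Δ225 than in Δ93 by a log2 fold change of -2.22 ± 0.41 (adjusted p = 0.000724) and than in Δ306 by -2.06 ± 0.46 (adjusted p = 0.00671). Without the 4 libraries low in Y-linked genes these 4 adjusted p were 0.167, 0.0593, 0.0237 and 0.0943, in the same order. Leaving out any 1 of the 6 WT and Δ306 libraries took the Δ306 adjusted p to between 0.064 and 0.153, and leaving out WT replicate 2 or 3 took that of Δ93 to 0.0616 and 0.0555. In the table of WT and Δ306 alone Ptger3 was higher by 2.10 ± 0.37 (adjusted p = 0.0114). The 8 pre-granulosa markers, genes of the supporting cells of the ovary such as Foxl2 and Fst, had a summed CPM of 113 to 163 in WT, 125 to 166 in Δ225, 115 to 905 in Δ104, 454 to 853 in Δ306 and 547 to 1235 in Δ93. All 8 were higher than in WT in Δ93 and in Δ306, and by edgeR 8 passed in Δ93 and 5 in Δ306 (14.1% and 6.43% of all genes passed). Their part in the Ptger3 result was not tested.

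**Figure D5:**
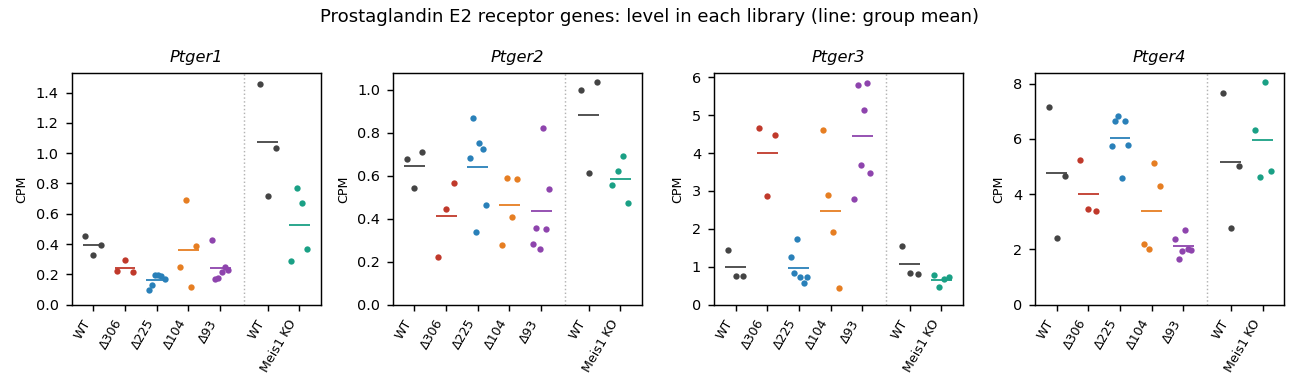
CPM of the 4 genes for prostaglandin E2 receptors, from 0 on each vertical axis, with a point for each library and a line at the group mean; the dotted line separates the 2 tables. Ptger3 was 2.78 to 5.84 CPM in Δ93 and 0.562 to 1.74 in Δ225, and Ptger4 was 1.64 to 2.71 in Δ93 and 4.57 to 6.82 in Δ225.

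The other pathway genes that passed were Akr1c18, Pla2g6 and Ptgr2. Akr1c18, a reductase that acts on prostaglandins and steroids, had 0, 1 and 0 counts in WT, 0 to 2 in Δ225, 4 to 7 in Δ306 and 0 to 10 in Δ104. In Δ93 it had 4, 21, 10, 500, 40 and 13 counts, and passed against WT (edgeR adjusted p = 0.00583) and against Δ225 (adjusted p = 0.00091); the library with 500 counts, replicate 4, is low in Y-linked genes, and without the 4 such libraries the 2 values were 0.0179 and 0.0267. Pla2g6, a phospholipase that can release arachidonic acid, read 47.4, 45.0 and 40.8 CPM in WT and 30.6, 30.2 and 27.2 in Δ306, a fall by 0.60 ± 0.18 on the log2 scale (adjusted p = 0.0450; 0.170 without the 4 libraries). Leaving out any 1 of the 6 WT and Δ306 libraries took that adjusted p to between 0.0810 and 0.190. Ptgr2, a prostaglandin reductase, was lower in Δ225 than in Δ93 by a log2 fold change of -0.41 ± 0.11 (adjusted p = 0.00915) and than in Δ306 by -0.39 ± 0.13 (adjusted p = 0.0466), with adjusted p of 0.0658 and 0.329 without the 4 libraries. The second was also over the threshold when any 1 of the 9 Δ225 and Δ306 libraries was left out, except Δ225 replicate 1 (0.0554 to 0.351). In the table of WT and Δ306 alone, Tbxa2r, the thromboxane receptor gene (-1.09 ± 0.31, adjusted p = 0.0467), and Akr1b3, an aldo-keto reductase gene (-0.32 ± 0.08, adjusted p = 0.0382), also passed.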

How the data were processed

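Poly(A) RNA was made into directional libraries with the NEBNext Ultra II kit, per the labels' protocols. The authors deposited whole-number counts per Ensembl gene, named as such from the values; STAR and mm10 are given for all samples in the submitters' processing notes, and STAR 2.7.10a, featureCounts and Subread for WT and Δ306. The annotation and the strand setting of the counting are not given in the sources used here. Members were matched through the gene identifiers and symbols (other, non-numeric columns) of a table the authors deposited, whose fold changes were not used. The Δ306 columns of the table with WT alone carry only the name fgf9 and were assigned from the stated design.

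The main test was edgeR 4.0.16 (filterByExpr, TMM, quasi-likelihood F-test) in R 4.3.3, on the 22 libraries of WT and the deletions together (17 residual degrees of freedom) or the 7 of the Meis1 table (5). P-values were adjusted over all genes tested. CPM are counts per 1000000 on TMM-scaled totals, and SE is the log2 fold change divided by the square root of F. The ratio of Ptgds to Sox9 was compared by exact permutation with scipy 1.17.1. DESeq2 1.42.0, RLE scaling, no filter, fits of the groups compared alone, a threshold of 0.01, a replicate block and the omission of each library were alternatives; 2 exclusions of libraries were added after seeing the data. The edgeR script was tested on simulated counts. Replicates of each group differed by more than counting error. Coordinates and exon lengths came from GENCODE M21 on GRCm38, and promoters from RefSeq on GRCm38.p6. The genes named were the 9 members, pathway genes called in any comparison, marker lists as counts and ranges, and the 5 genes closest to Ptgds and Hpgds (likewise for Ptges, as in Other observations). Members and lists were chosen with earlier results of these data known.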

Additional observations from a re-analysis of the deposited data

Results flagged for a closer look

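Within-group outliers were looked for with Dixon's test in 40 combinations of a measure (the 9 members and the Ptgds to Sox9 ratio) and a group of 4 to 10 libraries, of which chance marks about 1 in 20, and 2 were found. Hpgd read 42.4 CPM in Δ225 replicate 1, apart from the other 5 libraries of its group at 23.2 to 28.7; this library has the fewest counts (11.6 M) and the highest mitochondrial share (11.6%). Ptgs2 read 0.435 CPM in Δ225 replicate 3, from 9 counts, where the other 5 libraries had 0 to 6 counts. The part of depth in either value was not tested.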

How the results depend on the processing

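The members called changed with the setting in these comparisons. In Δ306 against WT, 1 passed in the fit of those groups alone (17.5% of all genes passed) and 1 in their own table (18.8%), in place of 0. In Meis1 KO, DESeq2 called 1, and leaving out single libraries gave 0 to 2, the 2 without WT replicate 1 (12.9% of genes; 0.0899% to 0.158% without any other library). In Δ225 against Δ306, DESeq2 called 1 and the fit of those groups alone 2 (Ptgds and Ptgfr; 9.7% of genes). At an adjusted p under 0.01, the calls were 0 in Δ93 against WT (5.38% of genes) and 1 in Δ225 against Δ93 (9.96%). Leaving out single libraries gave 0 to 2 members in Δ93 against WT (6.25% to 15.7% of genes) and 0 to 1 in Δ93 against Δ104, the 1 without Δ104 replicate 1 (3.46%). Without the 4 libraries low in Y-linked genes, 1 passed in Δ93 against WT (6.62%). In Δ225 against Δ93, Ptgds did not pass without those 4 libraries (9.06% of genes passed) or without Δ93 replicate 4 (16.1%). Ptgfr did not pass there without the 8 libraries under 25 M counts, with a log2 fold change of 1.13. Without the 8 libraries under 25 M counts, which left Δ104 with 1 library assumed to vary like the others, 1 passed in Δ104 against WT and 1 in Δ225 against Δ104 (Ptges, -0.89 and 0.91; 19.1% and 21% of genes). The cause of these changes was not tested.

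In that setting Δ93 against Δ104 changed sign for Ptgds (3.84) and for its log2 ratio to Sox9 (1.19). The ratio for Δ104 against Δ306, -0.01 with all libraries, ran from -0.67 to 0.81 without single libraries, and that for Δ225 against Δ93 from 2.02 to 2.63. Ptges in Δ225 against Δ104, 0.02 with all libraries, was -0.061 without the libraries low in Y-linked genes and -0.12 to 0.15 without single libraries. Values for members in comparisons with no nominal difference changed sign in 102 of 1109 values from planned refits and 30 of 144 from added ones.

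Deviations from the group mean were correlated between same-numbered libraries of different groups. In the table of all deletions the median correlation was 0.017 (9 of 35 pairs over 0.1), against 0.001 for other pairs. In the Meis1 table it was 0.33 (2 of 3 pairs over 0.1), against -0.19 for other pairs. The main fits did not take the numbers as pairing. With a replicate block, 3 members passed in Δ93 against WT (14.6% of genes), 3 in Δ225 against Δ93 (20.2%) and 0 in the other 9 comparisons, and Ptges in Δ225 against Δ104 was -0.22. Ptges was the member added in Δ93 against WT (-0.78, edgeR adjusted p = 0.0376). No fold was computed for Akr1c18 where a group held only zeros. Depth limits Ptgs2, Ptger2 and Hpgds, each with at most 71 counts in any library.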

Other observations

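The genes whose centred log2 CPM lay closest to that of Ptges over the 22 libraries were Sumf2, Zfp628, Prr5, Tada3 and Camk1, with root mean square differences of 0.174 to 0.184 against a median of 0.530 over all genes. Sox9 was at rank 14798 of 16152 for Ptges and 15146 for Hpgds. Centred log2 CPM was not scaled by spread, so this distance also depends on how widely each gene varied. The ranks of Sox9 therefore do not describe its pattern alone.

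The same WT libraries had unequal counts of some pathway genes in the 2 tables that hold them. Ptgr2, whose exons overlap the opposite-strand gene Gm47484, had 631, 937 and 662 counts in the table of all deletions and 1172, 1644 and 1285 in the Meis1 table. Ptgs1 had 353, 284 and 204 counts against 419, 322 and 246. Ptgds, with no overlapping exon, had 5131, 6342 and 5004 against 5126, 6289 and 4984. Whether the overlap bears on the difference was not tested.

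Ptgdr, which encodes a prostaglandin D2 receptor, had 24 counts in Δ93 replicate 4 and 0 to 3 in each of the other 21 libraries of the table of all deletions. Akr1c18 had 500 counts in the same library.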
